A study of Mus musculus with 6 samples.

Results

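Cdh5, Pecam1, Cldn5, Ocln, Tjp1, F11r, Jam2, Jam3 and Esam, which encode proteins of the contacts between endothelial cells, were followed in RNA from mouse lung endothelium. The members were chosen by name, and all 9 symbols had exactly 1 row among the 24520 genes of the count and TPM tables. The cells were taken from the lung with a fluorescence-activated sorter. There were 3 libraries of genotype wt and 3 of genotype ko for Dnmt3a, a DNA methyltransferase; these groups are written WT and KO. Both groups share the tissue, the sort and an amplifying library kit for small RNA amounts. The sources used here give neither the allele, the promoter of any Cre, the markers of the gate nor the age of the mice, and do not say whether each library is a separate animal. A p-value here therefore measures only the spread between these libraries, which may be technical in part. Xist, an RNA of female cells, was high only in replicate 1 of each label, as given below. The libraries of a label therefore do not all come from the same animal.

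Endothelial cells hold each other at adherens junctions and tight junctions, and the tightness of these contacts sets how easily fluid, solutes and leukocytes leave the blood. At adherens junctions VE-cadherin molecules of neighbouring cells bind each other and are anchored to actin through catenins. At tight junctions claudins form the seal, occludin and the junctional adhesion molecules (JAMs) lie beside them, and zonula occludens proteins tie them to the cytoskeleton. Immunoglobulin-type adhesion molecules such as PECAM-1, the JAMs and ESAM also take part in the passage of leukocytes through the vessel wall.

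The estimated counts summed to 28136194 to 39999172 per library. Dnmt3a itself ran against its label, with 1235, 1079 and 1198 estimated counts under WT and 5090, 4878 and 4750 under KO (here and below in the order of replicates 1, 2 and 3; log2 fold change 2.22, SE 0.11, edgeR adjusted p = 0.00157). A gene-level sum need not fall when part of a gene is deleted, and exons were not analysed here, so the groups are named by their labels, and fold changes are KO-labelled over WT-labelled libraries. As a check of the endothelial label, 18 other endothelial genes were summed: together they held 13430 to 17930 CPM (counts per 1e6 counts, scaled by TMM) under WT and 13450 to 15000 CPM under KO. Alveolar type 2 epithelial RNA was also present in every library. Its 10 markers, none of them at 0 in all libraries, summed to 386 to 9475 CPM under WT and 838 to 3723 CPM under KO. Sftpc was the most abundant of them by TPM, at 173 to 7762 CPM. Abca3 (122 to 169 CPM) and Lpcat1 (55.1 to 90.5 CPM) differed far less between libraries. They held 128 and 55.1 CPM of the lowest sum, that of WT replicate 2.

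All 9 junction genes were well above the detection limit, with at least 804 estimated counts in any library, and all passed the filter on low counts. On the TPM scale, which corrects for transcript length and so allows genes to be compared, Cldn5 was the most abundant at 3205 TPM averaged over the 6 libraries, the 16th highest of 18826 genes with a TPM above 0. Esam followed at 1915 TPM, Pecam1 at 1099 TPM, Cdh5 at 933 TPM and F11r at 552 TPM. Tjp1 (152 TPM), Jam2 (66.3 TPM), Ocln (52.9 TPM) and Jam3 (31.0 TPM) were lower. Each gene lay above the next in all 6 libraries, with no overlap of their ranges, except Jam2 and Ocln. Jam2 exceeded Ocln in 5 of 6 libraries, and their ranges overlapped. Pecam1 and Cdh5 were close, 999 TPM being the lowest value of the first and 993 TPM the highest of the second.

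**Figure D1:**
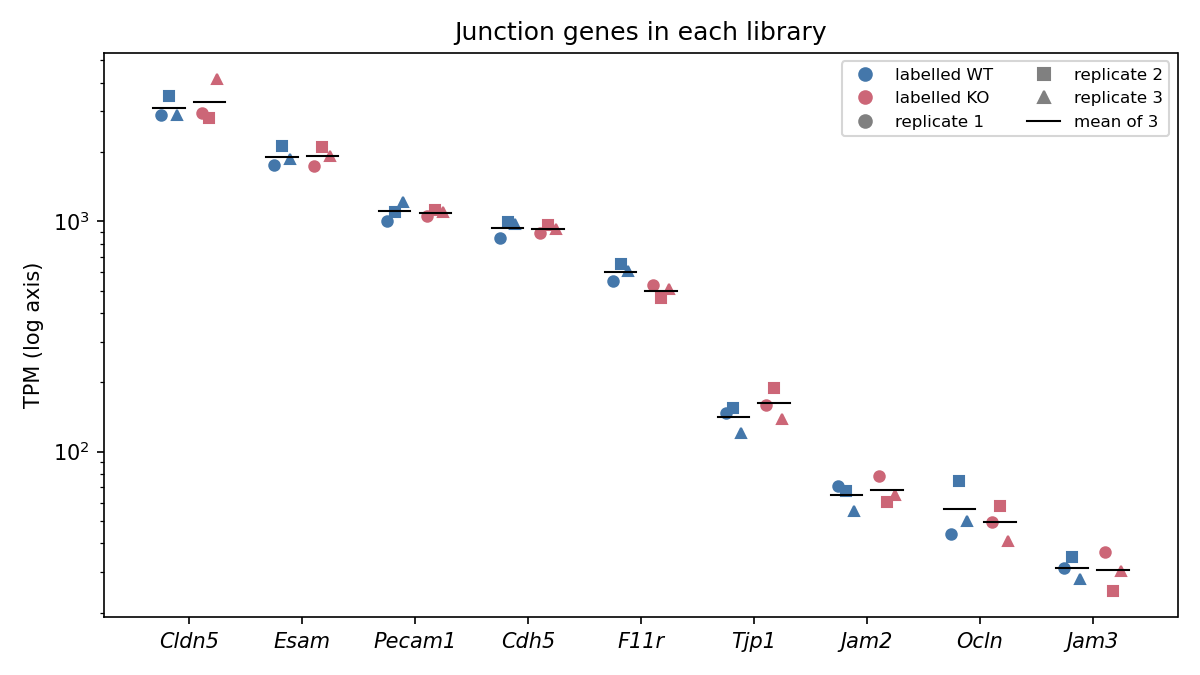
TPM (log axis) of the 9 junction genes, ordered by mean level, in each library. Blue symbols are libraries labelled WT and red symbols those labelled KO, the symbol shape gives the replicate number and the black line the mean of 3. The order from Cldn5 (3205 TPM) down to Jam3 (31.0 TPM) is the same under both labels, and F11r has all 3 KO values below the 3 WT values.

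Between the labels, no junction gene passed edgeR's quasi-likelihood test at an adjusted p of 0.05 (0 of 9, against 0.0341% of all 14667 genes tested). DESeq2 called 0 of 9 as well (2.68% of all genes it tested), and limma on log2(TPM + 1) called 0 of 9 (0.0159%). At an unadjusted p under 0.05 edgeR counted 1 of 9, which is F11r, against 12.6% of all genes. CPM values did not overlap between the labels for 1 of 9, again F11r, where 20.3% of all genes did not overlap (9.42% of all genes with KO lower). A single member is too few to read anything from that share. Of the 9 log2 fold changes, 3 were positive (50.9% of all genes were) and 6 negative, with a median of -0.09 beside 0.01 over all tested genes. In bulk RNA, fewer cells of a type and less RNA per cell cannot be told apart.

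**Figure D2:**
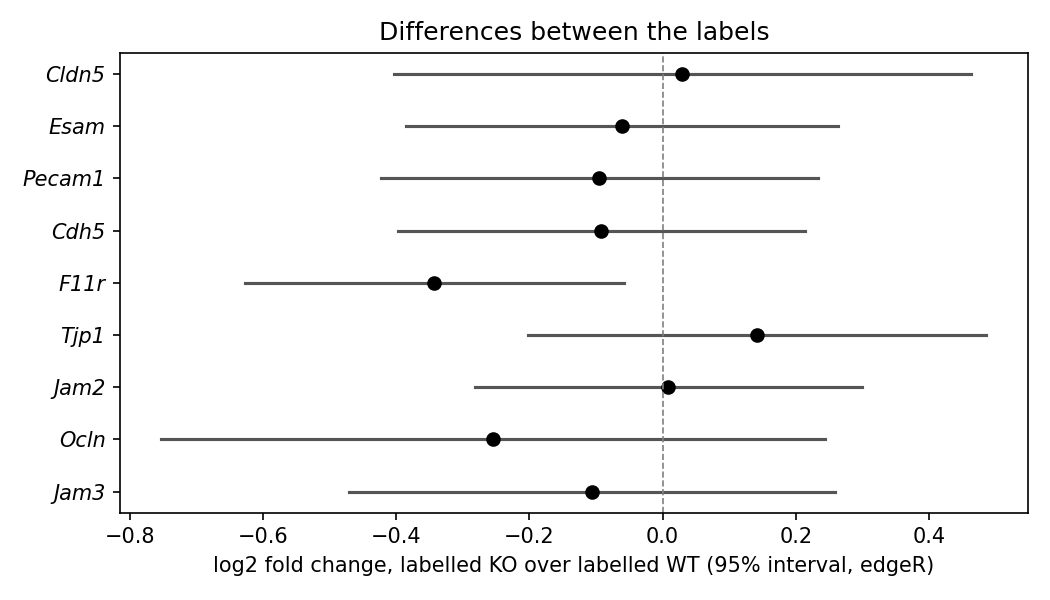
Log2 fold change of each junction gene, libraries labelled KO over those labelled WT, from edgeR, with its 95% interval; genes are ordered by mean TPM. The intervals of 8 genes include 0, and that of F11r runs from -0.63 to -0.06 before any adjustment for the number of genes tested.

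F11r encodes JAM-A, an immunoglobulin-type protein of tight junctions that is found on endothelium, epithelium, leukocytes and platelets. The gene (ENSMUSG00000038235) lies on mm10 chromosome 1, 171437535 to 171464603, plus strand. It had 775, 911 and 926 CPM under WT and 699, 645 and 715 CPM under KO. Every library labelled KO was below every library labelled WT, the nearest being WT replicate 1 at 775 CPM and KO replicate 3 at 715 CPM. The means were 871 ± 83.1 and 687 ± 36.7 CPM (SD, n = 3 each). This is -0.34 on the log2 scale (SE 0.12, unadjusted p = 0.0243, edgeR adjusted p = 0.341). The 95% interval in linear terms ran from 0.647 to 0.960 times the WT level. DESeq2 gave -0.35 (adjusted p = 0.116) and limma on log2(TPM + 1) gave -0.27 (adjusted p = 0.431). Over all 16 alternatives the log2 fold change of F11r ran from -0.43 to -0.27 and the adjusted p from 0.116 to 0.69. Without WT replicate 2, WT replicate 3, KO replicate 1 or KO replicate 2, edgeR's unadjusted p was under 0.05 for 0 of the 9 junction genes. Within a label F11r varied little: its within-group SD of log2 CPM was 0.11, beside a median of 0.23 over the 12222 genes whose mean count was 50 or more, and 12.3% of those genes varied less.

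F11r and Ocln are also made by lung epithelium, so their values are set beside epithelial RNA. Summed over 10 markers, alveolar type 2 RNA was at 9475, 386 and 4209 CPM under WT and at 3723, 2444 and 838 CPM under KO, with overlap between the labels. WT replicate 2, the library with the least alveolar type 2 RNA, had 911 CPM of F11r and the highest Ocln, 137 CPM. WT replicate 1, with the most, had the lowest F11r of its label. KO replicate 3, with the least of its label, had the lowest Ocln of all 6 libraries, 75.2 CPM. The 10 epithelial junction genes, including Cdh1 (E-cadherin), Epcam, Cldn3 and Cldn18, summed to only 10.2 CPM in WT replicate 2 and to 180 CPM in WT replicate 1. Of the 10 alveolar type 2 markers 1 had a positive log2 fold change, with a median of -1.07. Of the 10 epithelial junction genes 1 did, with a median of -1.14. Over all tested genes 50.9% were positive, with a median of 0.01, and edgeR called 0 in both lists. F11r was at -0.34 and Ocln at -0.25. Most of these markers rose and fell together over the libraries, so their shared sign is not a set of separate results. By limma on log2(TPM + 1), Sftpc was at -0.12, where edgeR gave -1.08. On that test the type 2 markers ran from -0.48 (Lamp3) to 0.30 (Lpcat1), beside -1.24 and 0.23 by edgeR. The part of epithelial RNA in the F11r and Ocln values was not tested. Without WT replicate 1 the log2 fold change of F11r was -0.43 and without WT replicate 3 it was -0.30. Platelets carry JAM-A too, and their 8 markers, of which Pf4 was the most abundant by TPM and none was at 0 in all libraries, summed to 8.19 to 17.2 CPM under WT and 6.81 to 15.3 CPM under KO. Macrophage and monocyte markers (10 genes) summed to 23.2 to 434 CPM and 31.6 to 189 CPM, mostly Lyz2, which alveolar type 2 cells also express; Marco, Csf1r and Itgax were at 0 in every library.

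**Figure D3:**
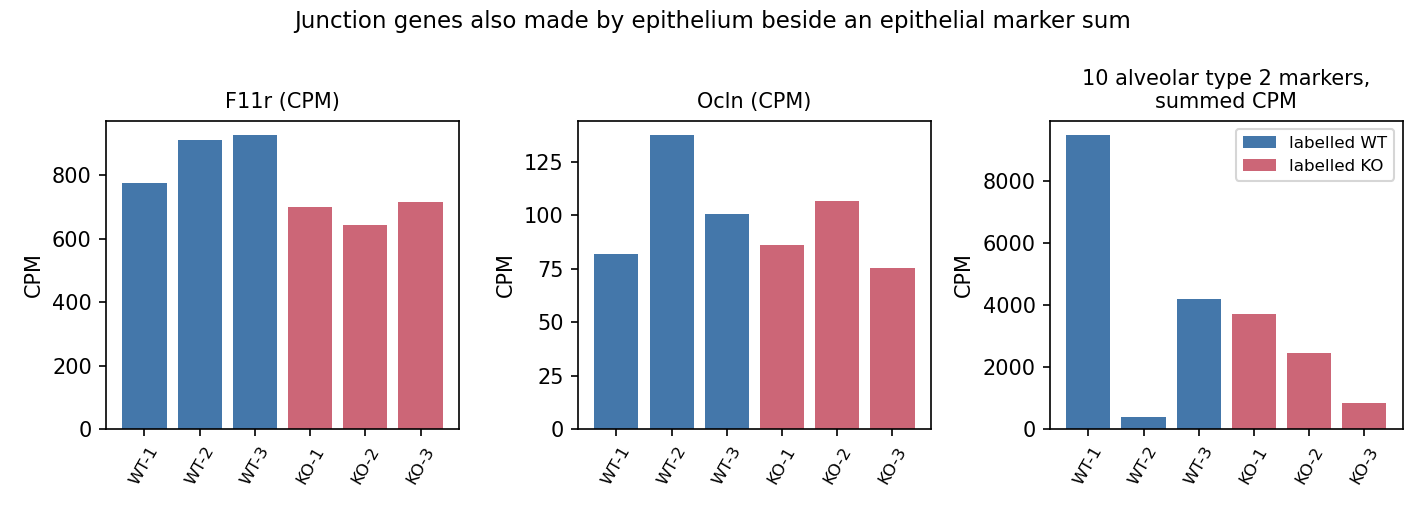
CPM of F11r (left), Ocln (middle) and the sum of 10 alveolar type 2 markers (right) in each library, with bars from 0; blue is labelled WT and red labelled KO, and each label ends in the replicate number. WT replicate 2 has the lowest marker sum, 386 CPM, and the highest Ocln, 137 CPM; KO replicate 3 has 838 CPM of the markers and the lowest Ocln, 75.2 CPM; WT replicate 1 has the highest marker sum, 9475 CPM.

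The promoter sequences of F11r, the member with separate groups, and Cldn5, the most abundant, are shown because the targeted enzyme methylates cytosines in CpG dinucleotides. Each is the 250 bases before the RefSeq start on GRCm38.p6, the same assembly as mm10, read 5′ to 3′ on the plus strand with every CpG in capitals. F11r lies at chr1:171437311-171437560 and Cldn5 at chr16:18776597-18776846.
F11r: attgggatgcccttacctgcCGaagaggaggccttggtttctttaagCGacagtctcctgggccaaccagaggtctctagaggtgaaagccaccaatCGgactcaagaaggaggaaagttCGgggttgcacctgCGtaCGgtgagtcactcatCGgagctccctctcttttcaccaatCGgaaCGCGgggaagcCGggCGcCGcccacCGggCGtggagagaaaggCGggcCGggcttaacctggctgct
Cldn5: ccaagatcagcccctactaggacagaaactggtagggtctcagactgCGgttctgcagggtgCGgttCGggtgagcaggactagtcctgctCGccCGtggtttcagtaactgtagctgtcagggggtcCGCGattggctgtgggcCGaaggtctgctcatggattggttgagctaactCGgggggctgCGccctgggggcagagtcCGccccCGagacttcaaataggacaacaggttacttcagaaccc
The F11r sequence held 17 CpGs and the Cldn5 sequence 12, beside a median of 6 over 32851 RefSeq promoters. Of the 9 members, 4 had a promoter in the RefSeq table. The Tjp1 window held 22 CpGs and lies at chr7:65371245-65371494, inside the annotated gene and not at its outer end. The pair of Ocln starts held 14 and 22, in windows that overlap each other. All 5 windows of these 4 genes held GGGCGG, the core of the GC box bound by Sp1-type factors, on either strand, as did 32.7% of all promoters. None of the 5 held AGGAAG, a short form of the ETS factor motif, on either strand, while 29.5% of all promoters did. Methylation was not measured in these libraries, and a match or its absence describes letters only.

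Cdh5 encodes VE-cadherin, the adhesion protein of endothelial adherens junctions (ENSMUSG00000031871, chromosome 8, 104101625 to 104144511, plus strand). It had 2013, 2338 and 2518 CPM under WT and 1989, 2268 and 2187 CPM under KO. The groups overlapped, and replicate 1 was the lowest under both labels. The log2 fold change was -0.09 (SE 0.13, edgeR adjusted p = 0.792), with a 95% interval of 0.759 to 1.16 times the WT level. An antisense gene, Gm29682, overlaps Cdh5, but it held 8 to 13 estimated counts per library beside at least 58823 for Cdh5. Cdh5 made up 96.0% to 98.8% of the summed TPM of Cdh5, Cdh13 (T-cadherin), Cdh2 (N-cadherin) and Cdh1 in the 6 libraries.

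Pecam1 encodes PECAM-1 or CD31, which binds itself on the neighbouring cell (ENSMUSG00000020717, chromosome 11, 106654217 to 106750628, minus strand). Its levels were 1865, 2047 and 2461 CPM under WT and 1846, 2085 and 2036 CPM under KO. WT replicate 3 was the highest, and the other values of both labels were intermixed. The log2 fold change was -0.09 (SE 0.14, edgeR adjusted p = 0.801), with an interval of 0.746 to 1.18 times the WT level.

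Esam encodes an adhesion molecule of endothelial tight junctions and platelets that is related to the JAMs (ENSMUSG00000001946, chromosome 9, 37528078 to 37538319, plus strand). It stood at 1771, 2128 and 2041 CPM under WT and at 1656, 2097 and 1942 CPM under KO, again lowest in replicate 1 of each label. The log2 fold change was -0.06 (SE 0.14, edgeR adjusted p = 0.875; interval 0.765 to 1.20 times the WT level). With the libraries scaled to the median of the endothelial reference genes it was 0.0004.

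Cdh5, Pecam1 and Esam thus shared a pattern that did not follow the labels: replicate 1 was the lowest library under WT and under KO for each of them. The summed endothelial reference was likewise lowest in WT replicate 1 (13430 CPM) and KO replicate 1 (13450 CPM). Of the 18 genes of the sum, only Kdr, Eng, Robo4 and Ramp2 were lowest in replicate 1 under both labels. The others were not: under KO, for example, Egfl7 was lowest in replicate 2, and Tie1 and Erg were highest in replicate 1. WT replicate 1 and KO replicate 1 are also the 2 libraries with Xist RNA of female cells, 545 and 714 CPM, against at most 1.98 CPM in the other libraries. They held the most alveolar type 2 RNA of their label as well, 9475 and 3723 CPM. When each library was scaled to the median of those 18 endothelial genes, the highest value of Cdh5 was 1.15 times its lowest instead of 1.27 times, that of Pecam1 1.15 times instead of 1.33 times and that of Esam 1.26 times instead of 1.29 times. The same ratio was larger on that scale for Jam2 (1.45 instead of 1.23 times), Tjp1 (1.68 instead of 1.43 times) and Ocln (1.87 instead of 1.83 times). F11r was lower in all 3 libraries labelled KO on that scale too, at 835, 884 and 832 against 742, 680 and 678 scaled CPM (log2 fold change -0.28, edgeR adjusted p = 0.457). The part of sex or of sorting purity in the pattern was not tested.

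Cldn5 encodes claudin-5, the main sealing claudin of endothelium (ENSMUSG00000041378, chromosome 16, 18776847 to 18778262, plus strand). It was at 2131, 2552 and 2316 CPM under WT and at 2048, 2045 and 3050 CPM under KO. KO replicates 1 and 2 were the lowest of the 6 libraries and KO replicate 3 the highest. The log2 fold change was 0.03 (SE 0.19, edgeR adjusted p = 0.961; interval 0.756 to 1.38 times the WT level), and -0.19 without KO replicate 3. Cldn5 accounted for 95.7% to 99.6% of the summed TPM of Cldn5, Cldn12, Cldn15 and the epithelial claudins Cldn3, Cldn4, Cldn7 and Cldn18. That share was lowest in WT replicate 1, where Cldn3 reached 51.7 TPM and Cldn18 44.3 TPM, and highest in WT replicate 2, where they were at 1.60 and 2.57 TPM.

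Ocln encodes occludin, a membrane protein of tight junctions (ENSMUSG00000021638, chromosome 13, 100496507 to 100552718, minus strand). Its values were 81.8, 137 and 101 CPM under WT and 86.4, 107 and 75.2 CPM under KO. The groups overlapped and Ocln varied the most of the 9 members within a label, with an SD of log2 CPM of 0.32. The log2 fold change was -0.25 (SE 0.21, edgeR adjusted p = 0.636), and its interval of 0.594 to 1.18 times the WT level was the widest on the log2 scale. It was -0.03 without WT replicate 2. For every 100 TPM of Cldn5 there were 1.52, 2.14 and 1.73 TPM of Ocln under WT and 1.67, 2.07 and 0.977 TPM under KO.

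Tjp1 encodes ZO-1, the scaffold that binds claudins, occludin and JAMs on the cytoplasmic side (ENSMUSG00000030516, chromosome 7, 65296165 to 65527781, minus strand). It stood at 616, 641 and 547 CPM under WT and at 629, 782 and 580 CPM under KO. The groups overlapped, with KO replicate 2 the highest. The log2 fold change was 0.14 (SE 0.15, edgeR adjusted p = 0.708; interval 0.869 to 1.40 times the WT level) and 0.01 without KO replicate 2.

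Jam2 and Jam3 encode JAM-B and JAM-C, which bind each other across the cell contact. Jam2 (ENSMUSG00000053062, chromosome 16, 84774123 to 84825928, plus strand) was at 196, 186 and 167 CPM under WT and at 205, 167 and 180 CPM under KO. Its log2 fold change was 0.01 (SE 0.12, edgeR adjusted p = 0.985), with an interval of 0.822 to 1.23 times the WT level. Jam3 (ENSMUSG00000031990, chromosome 9, 27097384 to 27155421, minus strand) was at 34.0, 37.5 and 32.8 CPM under WT and at 37.4, 26.5 and 32.9 CPM under KO. KO replicate 2 was the lowest library, and the groups overlapped (log2 fold change -0.11, SE 0.16, edgeR adjusted p = 0.799; interval 0.721 to 1.20 times the WT level).

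The JAM family of the lung endothelium was mostly Esam. Esam held 72.8%, 73.7% and 73.0% of the summed TPM of Esam, F11r, Jam2 and Jam3 under WT, and 73.0%, 79.3% and 76.1% under KO. F11r held 22.9%, 22.7% and 23.8% under WT and 22.2%, 17.5% and 20.2% under KO, so that its shares did not overlap. The mean F11r share was 3.19 percentage points lower in the libraries labelled KO, and 1.98 points lower without KO replicate 2, whose share was the lowest. Jam2 (2.18% to 3.29%) and Jam3 (0.936% to 1.54%) were minor in every library. Shares of a family sum to a whole, so a lower share of F11r goes with a higher share of the others by construction, and these shares were not tested.

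**Figure D4:**
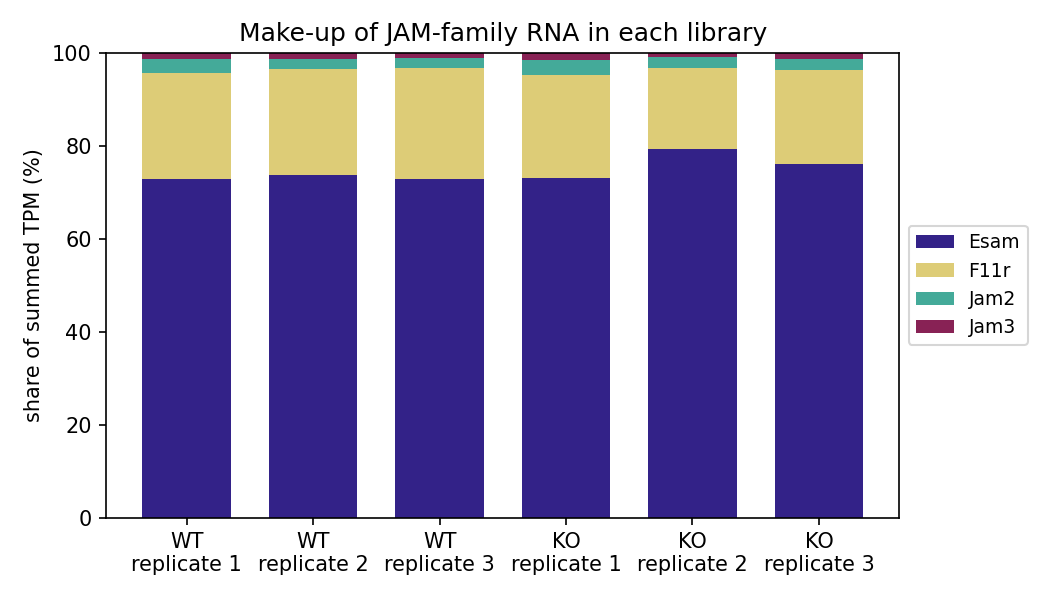
Share of the summed TPM of Esam, F11r, Jam2 and Jam3 taken by each gene, as stacked bars per library. Esam holds 72.8% to 79.3% and F11r 17.5% to 23.8%, with the lowest F11r share in KO replicate 2.

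Genes that work with these proteins or are related to them, such as the cadherin gene Cdh13, were examined as lists. In none of these lists did edgeR call a gene. Of 15 adherens junction partners edgeR called 0 (2 at an unadjusted p under 0.05, where 12.6% of all genes were), limma called 0 and DESeq2 called 1 (2.68% of all genes). Their median log2 fold change was -0.02, with 7 positive (50.9% of all genes), and 2 were higher without overlap in CPM (10.9% of all genes). The 2 most abundant were Jup (plakoglobin), at 835 TPM under WT and 840 TPM under KO, and Ctnna1 (alpha-catenin), at 562 and 563 TPM. On the log2 scale KO minus WT was -0.06 (SE 0.16) for Jup and -0.07 (SE 0.15) for Ctnna1. Jup and Ctnna1 together with Ctnnb1 (300 TPM over all libraries) and Ctnnd1 (86.4 TPM) are the catenins of the cadherin complex, and the labels overlapped for each of these catenins. Ptprb, which encodes the phosphatase VE-PTP that associates with VE-cadherin, was at 218, 227 and 197 TPM under WT and at 286, 354 and 243 TPM under KO, without overlap (log2 fold change 0.39, SE 0.16, edgeR adjusted p = 0.378). The gene called by DESeq2 was Cdh13, at 23.5, 17.5 and 22.4 CPM under WT and 49.2, 39.2 and 31.2 CPM under KO (log2 fold change 0.92, SE 0.20, edgeR adjusted p = 0.252, DESeq2 adjusted p = 0.00692).

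Of 21 tight junction partners edgeR called 0 (3 at an unadjusted p under 0.05, beside 12.6% of all genes), and DESeq2 and limma called 0. The median log2 fold change was 0.12, and 12 were positive (50.9% of all genes). Amotl1 (angiomotin-like 1), the most abundant, was at 68.9 TPM under WT and 73.8 TPM under KO. Ybx3, which encodes the ZO-1-associated protein ZONAB, was at 43.4 and 65.8 TPM without overlap (log2 fold change 0.53, SE 0.16, edgeR adjusted p = 0.312). Pard6g, a polarity protein, and Cldn15 also had separate groups, with KO minus WT of 0.50 (SE 0.16) and 1.18 (SE 0.36) on the log2 scale, the second at only 1.68 CPM under WT and 3.80 CPM under KO. Pard3, a polarity protein as well, was the last of the 4 members higher without overlap, where 10.9% of all genes were.

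Of 21 regulators of junction signalling edgeR called 0 (4 at an unadjusted p under 0.05, beside 12.6% of all genes), limma called 0 and DESeq2 called 1 (2.68% of all genes). Their log2 fold changes were positive for 17 (50.9% of all genes), with a median of 0.13. In CPM 4 were higher and 1 lower without overlap, where 10.9% and 9.42% of all genes were. The angiopoietin receptor genes Tie1 and Tek were the most abundant, with KO minus WT of -0.09 (SE 0.12) for Tie1 and 0.01 (SE 0.18) for Tek on the log2 scale. Rap1b, which encodes a small GTPase that promotes cadherin adhesion, was at 152 TPM under WT and 218 TPM under KO without overlap (log2 fold change 0.46, SE 0.15, edgeR adjusted p = 0.327). Its relative Rap1a was at 142 and 196 TPM (0.41, SE 0.16), with groups that were separate in TPM and overlapped in CPM. The gene called by DESeq2 was Tiam1, which encodes an activator of the GTPase Rac, at 46.7, 36.0 and 66.1 CPM under WT and 31.3, 16.0 and 15.9 CPM under KO (log2 fold change -1.24, SE 0.33, edgeR adjusted p = 0.292, DESeq2 adjusted p = 0.0102).

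Of 10 junctional transmigration partners edgeR called 0 (1 at an unadjusted p under 0.05, beside 12.6% of all genes), as did DESeq2 and limma. The median was 0.21, with 6 positive (50.9% of all genes). In CPM 1 was higher and 1 lower without overlap, where 10.9% and 9.42% of all genes were. Icam2, an endothelial adhesion molecule that binds leukocyte integrins, lay between Cldn5 and Esam in mean level, at 2127 TPM under WT and 2170 TPM under KO. Icam2 was below Esam in WT replicate 2 (2075 against 2119 TPM) and KO replicate 1 (1731 against 1740 TPM). Mcam was at 338 and 340 TPM. Cd47, a widely expressed surface protein, was at 112 and 203 TPM without overlap (log2 fold change 0.79, SE 0.26, edgeR adjusted p = 0.327), with KO replicate 2 the highest at 295 TPM. Of the 18 endothelial reference genes edgeR called 0 (3 at an unadjusted p under 0.05, beside 12.6% of all genes), as did DESeq2 and limma. The median was -0.04, with 9 positive (50.9% of all genes). In CPM 2 were higher and 2 lower without overlap, where 10.9% and 9.42% of all genes were. Egfl7 and Ramp2, its most abundant genes, differed by -0.18 (SE 0.19) and 0.24 (SE 0.19) on the log2 scale, neither past the threshold.

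**Figure D5:**
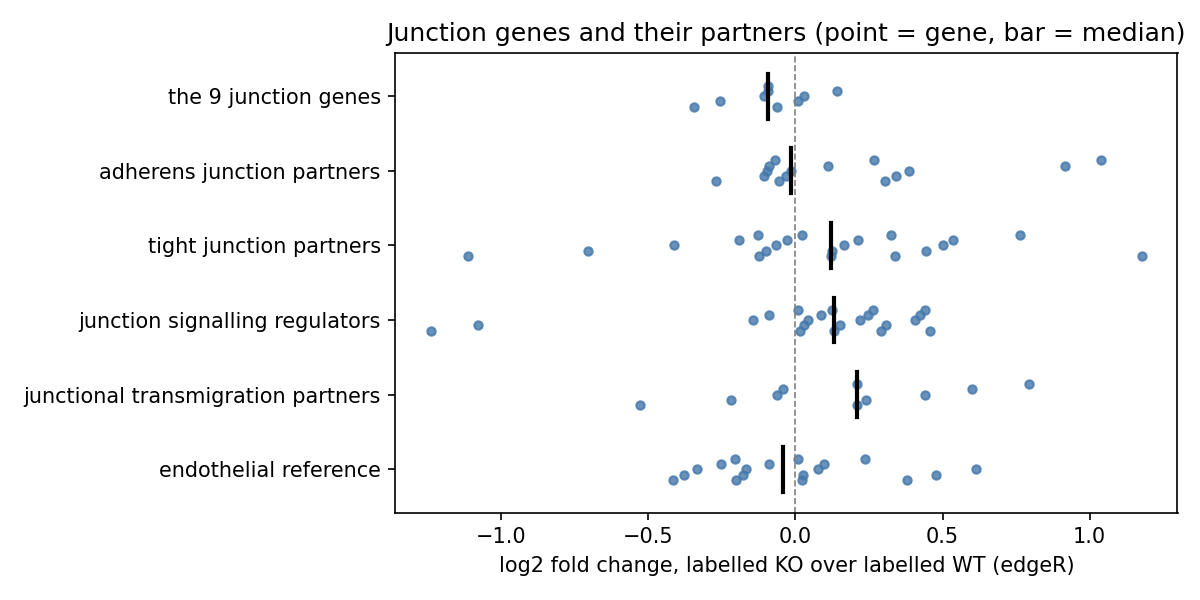
Log2 fold change (libraries labelled KO over WT, edgeR) of each tested gene in the 9 junction genes and 5 related lists; each point is a gene and each black bar the list's median. Medians run from -0.09 for the junction genes to 0.21 for the transmigration partners, beside 0.01 over all genes.

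Markers of some other cells differed between the labels beside these values. Fibroblast markers summed to 164 to 254 CPM under WT and 327 to 510 CPM under KO, with 9 of 10 positive (50.9% of all genes), Gsn the most abundant by TPM and none at 0 in all libraries. Of these 10 markers, 6 were higher without overlap (10.9% of all genes) and 6 had an unadjusted p under 0.05 (12.6% of all genes). DESeq2 called 5 of them (2.68% of all genes), limma on log2(TPM + 1) called 1, Dcn, and edgeR called 1, Col3a1 (adjusted p = 0.0223). In each of 6 fits with a single library left out, Col3a1 missed the edgeR threshold, its adjusted p ranging between 0.0781 and 0.293. Lymphatic endothelial markers, whose cells also express several junction genes, summed to 357 to 690 CPM and 985 to 1305 CPM, mostly Lyve1. Of 5 tested markers, 3 were positive (50.9% of all genes), and none of the list was at 0 in all libraries. Only Lyve1 was higher without overlap (10.9% of all genes). It was also the only DESeq2 call (adjusted p = 0.00394, 2.68% of all genes), while its edgeR adjusted p was 0.282. Prox1 was at 0.477 to 2.10 and 1.39 to 2.87 CPM. Pericyte and smooth muscle markers (141 to 557 and 144 to 652 CPM) and airway markers (29.2 to 1112 and 409 to 449 CPM) overlapped between the labels. So did alveolar type 1 markers (545 to 674 and 523 to 991 CPM) and T, NK and B cell markers (5.23 to 7.75 and 3.96 to 10.9 CPM). The most abundant by TPM were Acta2, Scgb1a1, Clic5 and Cd79a, in the order of these lists. The alveolar type 1 sums were mostly Clic5, which was at 500 CPM in WT replicate 2, where Ager was at its lowest, 21.4 CPM. Of the 8 alveolar type 1 markers 1, Hopx, was higher without overlap (10.9% of all genes). DESeq2 called it (adjusted p = 0.0357, 2.68% of all genes), while its edgeR adjusted p was 0.293. The part of all these cells in the junction genes' values was not tested.

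Over the 6 libraries, the genes whose log2 CPM followed a member most closely by Pearson correlation were, as a description, Kctd13 and Abhd16a for Cdh5 and Hsph1 and Carhsp1 for Esam. They were Akap12 and Hnrnpr for Cldn5, Wdr70 and Nfyc for Ocln, and Atf7 and Heca for Tjp1. For the JAMs they were Dera and Cnot9 (F11r), Cpxm1 and Dag1 (Jam2) and Parp16 and Ccnb2 (Jam3). These correlations were 0.977 to 0.998, but with 6 libraries and 11646 genes compared, between 4 genes (Cldn5) and 100 genes (F11r) reached at least 0.95.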

How the data were processed

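RNA of sorted mouse lung endothelial cells was sequenced in 3 libraries per label. The authors deposited a table of estimated counts, unnormalized and in whole numbers, and a table of TPM values; the TPM columns sum to 875864 to 885609. Kallisto (version not stated) and mm10 are named in the submitters' processing notes. Annotation, gene summing and strand are not given in the sources here, so antisense reads are not told apart. Symbols (24298 of 24520 identifiers) and coordinates came from GENCODE M21 on the same assembly, promoters from RefSeq (GRCm38.p6).

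Counts were rounded, which changed none. All 6 libraries were fitted in R 4.3.3 with edgeR 4.0.16 (limma 3.58.1), using TMM factors, filterByExpr, the quasi-likelihood test without covariates and a Benjamini-Hochberg threshold of 0.05; the script was tested on simulated data. Intervals are 95% from the quasi-likelihood F. Alternatives were DESeq2 1.42.0, RLE factors, library size only, endothelial reference scaling, other filters, the replicate number as a block, limma on log2(TPM + 1) and log2(TPM + 0.1), and leaving out each library. Totals of 28136194 to 39999172 put 3 counts at 0.075 to 0.107 CPM before TMM scaling, which covers counting error only, since amplified reads are not independent molecules. Every pair of libraries differed by more than counting noise (chi-square divided by its degrees of freedom 47.4 to 195).

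The members and gene lists were chosen with earlier results of these data known. The rule for names took Dnmt3a, the members, up to 3 called genes per partner list or else the 2 highest by mean TPM, the highest and the undetected genes of each cell type list, and the 2 most alike genes per member, which are not reported here for Pecam1. Other partners (catenins, cadherins, claudins) and genes named for separate groups or DESeq2 calls were chosen after their values were seen. So were Xist, Gm29682 and further genes of the endothelial reference and cell type lists. Tie1 and Tek stand in both the signalling and the endothelial reference list.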

Additional observations from a re-analysis of the deposited data

How the results depend on the processing

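The 9 members were recomputed under 16 alternatives each, and no member passed the threshold in any of these 144 fits; 131 kept the sign and 13 did not. Under changed processing the sign changed for Jam2 (-0.0032 by DESeq2, -0.0047 with no filter) and for Esam (0.0004 with endothelial reference scaling, 0.0092 by limma on log2(TPM + 1), on log2(TPM + 0.1) and with a mean TPM of at least 1). Leaving out each library in turn gave log2 fold changes of -0.19 to -0.02 for Cdh5, -0.19 to 0.0243 for Pecam1, -0.19 to 0.13 for Cldn5, -0.42 to -0.03 for Ocln, 0.01 to 0.23 for Tjp1, -0.43 to -0.30 for F11r, -0.0831 to 0.0726 for Jam2, -0.23 to 0.016 for Jam3 and -0.14 to 0.0219 for Esam. Pecam1 changed sign without WT replicate 3, Cldn5 without WT replicate 1 or KO replicate 3, Jam2 without WT replicate 3 or KO replicate 1, Jam3 without KO replicate 2 and Esam without KO replicate 1. The mean difference in Ocln per 100 TPM of Cldn5 was -0.222, and 0.0748 without KO replicate 3.

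Over all genes, edgeR called 5, DESeq2 407, limma on log2(TPM + 1) 3 and limma on log2(TPM + 0.1) 1; edgeR called 1 to 4 when a library was left out, with 1 without WT replicate 1 or WT replicate 3, 2 without KO replicate 3 and 3 without KO replicate 1. DESeq2 called 1 adherens junction partner and 1 junction signalling regulator, where edgeR called none. The cause of these differences was not tested, beyond the fewer samples of the reduced fits.

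With the replicate number as a block edgeR called 0 genes (1472 at an unadjusted p under 0.05), and the log2 fold change of Dnmt3a was 2.23 (edgeR adjusted p = 0.0679). The labels do not say what a number marks, and same-numbered libraries did not deviate together in every pair: the correlations of their deviations over 12222 genes were 0.31, -0.06 and -0.19 for replicates 1, 2 and 3, and WT replicate 2 correlated best with KO replicate 3 (0.39). With 3 libraries a label, no interval of a member shows that its level is the same under both labels.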
